A study of Homo sapiens with 6 samples.

Results

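Immunoreceptor tyrosine-based activation motif (ITAM) adaptors, Fc receptors and the cytoplasmic enzymes that act with them were examined in the human line OCI-AML2, which derives from an acute myeloid leukaemia. The 9 genes were taken by symbol from a table of 55765 genes: the adaptors TYROBP and FCER1G, the Fc receptors FCGR1A and FCGR2A, the kinases SYK, FGR, LYN and BTK, and the phospholipase PLCG2. All 9 passed the low-count filter that left 13053 tested genes. Libraries read from the 3′ ends of messenger RNAs had been made from cells kept for 48 h with 100 nM MRT199665, a compound that the labels call a MARK inhibitor (3 libraries), or with vehicle alone (3 libraries). All 6 libraries came from this line, and the labels describe cultures grown from single-cell clones without saying which clone gave which library. The labels do not say whether libraries of a group were separate cultures, so p-values reflect only how these libraries varied, a spread that may be technical.

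Myeloid cells read antibody-coated targets through Fc receptors, several of which have no signalling tail of their own and pair with an adaptor that carries an ITAM, a pair of spaced tyrosines. Src family kinases phosphorylate these tyrosines, SYK docks on them through its tandem SH2 domains, and the signal passes to PLCG2 and BTK, which raise calcium and activate protein kinase C. In monocytes and macrophages the same route serves phagocytosis, cytokine release and signalling by many activating receptors besides Fc receptors.

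Total counts ranged from 5871097 to 14308650 per library, and levels are given as CPM, that is, counts divided by TMM-adjusted library totals and brought to one scale. A gene with no count may still have had up to 3, equal to 0.213 to 0.507 CPM depending on the library, and this bound covers counting error only. The 9 genes had between 70 and 5901 counts per library. MRT199665 replicate 2 was the shallowest library and, with vehicle replicate 2, stood at an end of the first principal component (46.8% of the variance), which did not separate the groups. The second component (26.3%) did, with vehicle libraries from -35.3 to -0.954 and MRT199665 libraries from 5.94 to 26.4. Of 8 myeloid markers 6 were tested, and CSF1R, a growth factor receptor of monocytes and macrophages, rose 5.09-fold, from 8.08 ± 1.17 CPM with vehicle to 41.1 ± 3.35 CPM with MRT199665 (SD, n = 3 per group, edgeR adjusted p = 0.000694). CD33, ITGAM, MPO and LYZ also had every treated library above every vehicle library but did not pass (edgeR adjusted p from 0.105 to 0.272). SPI1 (PU.1) overlapped between the groups, at 65.7 ± 8.18 and 68.0 ± 7.41 CPM (SD, n = 3 per group), and CEBPA and CD68 were listed at 0 in every library. The summed level of the 8 myeloid markers was 161 to 181 CPM with vehicle and 231 to 258 CPM with MRT199665. Most of that difference came from CSF1R and from MPO, at means of 65.1 CPM with vehicle and 89.7 CPM with MRT199665. ITGAM and LYZ were low, at means of 1.02 and 1.51 CPM with vehicle and 2.06 and 3.60 CPM with MRT199665. Among markers of other lineages, summed levels did not overlap for 1 list, that of 9 T and NK cell genes (7.72 to 8.35 CPM with vehicle, 10.0 to 11.4 CPM with MRT199665). Of these, CD2 was at 0 in every library, and NKG7 supplied most of the sum, at a mean of 6.91 CPM with vehicle and 9.94 CPM with MRT199665. The part of the myeloid and other lineage genes in the results below was not tested. In bulk RNA, more cells expressing a gene and more RNA of it per cell cannot be told apart.

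TYROBP was the 1 gene of the 9 that passed the test, and it rose 1.94-fold. FCER1G, FCGR2A and LYN had every MRT199665 library above every vehicle library but did not pass. FCGR1A, SYK, FGR, PLCG2 and BTK overlapped between the groups. Among all tested genes 0.850% were called higher and 0.398% lower (edgeR quasi-likelihood test, adjusted p under 0.05, Benjamini-Hochberg over all tested genes, two-sided). Every MRT199665 library lay above every vehicle library for 4 of the 9 genes, against 11.4% of all tested genes, and below for none, against 10.8%. An unadjusted p under 0.05 was reached by the same 4 genes, and by 14.7% of all tested genes. The median log2 fold change of the 9 genes was 0.44, beside 0.01 over all tested genes. Since the 9 genes were chosen with results of these data known, these shares are a description.

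**Figure D1:**
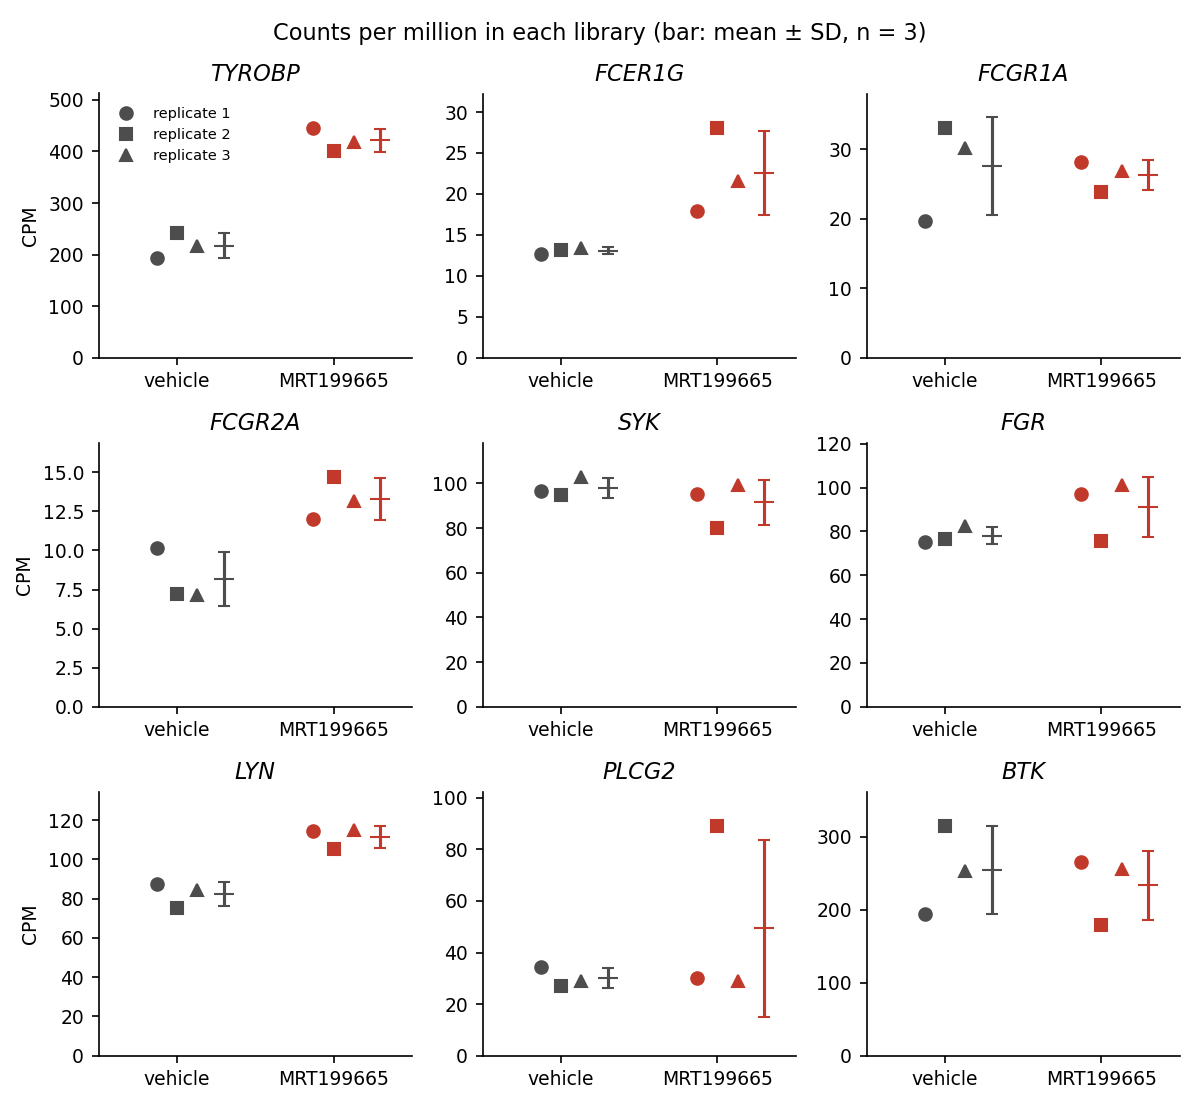
Levels in CPM (vertical axes, each from 0) of the 9 genes in each of the 3 vehicle and 3 MRT199665 libraries. Symbols mark the replicate number, and the bar beside each group is the mean ± SD (n = 3). TYROBP libraries lie between 193 and 242 CPM with vehicle and between 401 and 446 CPM with MRT199665, and MRT199665 replicate 2 stands alone for PLCG2 at 89.1 CPM.

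TYROBP encodes DAP12, a short transmembrane adaptor with an ITAM that serves receptors such as TREM2, SIRPB1 and CD300LB. Its level was 193, 242 and 216 CPM in vehicle replicates 1, 2 and 3, and 446, 401 and 418 CPM in MRT199665 replicates 1, 2 and 3. The groups were well apart, and the spread within each was small beside the distance between them. The means were 217 ± 24.2 and 422 ± 22.4 CPM (SD, n = 3 per group), a rise of 1.94-fold (95% interval 1.60 to 2.36, not corrected for the number of genes, edgeR adjusted p = 0.00789). The size of the TYROBP difference varied little when single libraries were left out, with log2 fold changes between 0.88 and 1.03. Its call ended without vehicle replicate 3 (adjusted p = 0.0971), without MRT199665 replicate 3 (0.0643) and with the replicate number as a block (0.166), within a range of 9.14e-09 to 0.166 over 16 alternatives.

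TYROBP has a convergent neighbour, HCST, which encodes the related adaptor DAP10 with a tail that binds phosphoinositide 3-kinase in place of an ITAM. In GENCODE release 29 (GRCh38) the annotated 3′ ends of TYROBP and HCST face each other on opposite strands with 23 bases between them. The deposited counts were made from 3′ reads, and the sources used here do not say whether strand was used in counting, so reads that run past an annotated end cannot be told apart from those of the neighbour. HCST stood at 101, 136 and 125 CPM in vehicle replicates 1 to 3 and at 178, 199 and 159 CPM in MRT199665 replicates 1 to 3. These groups did not overlap either, and the HCST log2 fold change of 0.57 ± 0.15 (SE) missed the threshold (edgeR adjusted p = 0.118). The vehicle libraries had the same order for both neighbours, with replicate 1 lowest and replicate 2 highest. The order of the treated libraries differed, since MRT199665 replicate 2 was the highest for HCST and the lowest for TYROBP.

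FCER1G encodes the common gamma chain of Fc receptors, the ITAM adaptor on which FCGR1A protein depends. Its level was 12.7, 13.1 and 13.4 CPM in vehicle replicates 1 to 3 and 17.9, 28.1 and 21.6 CPM in MRT199665 replicates 1 to 3. The vehicle libraries were nearly equal, and the treated libraries lay above them and were spread widely, with replicate 2 highest. The FCER1G ratio of MRT199665 to vehicle was 1.71 (95% interval 1.29 to 2.26), with an adjusted p of 0.0904 by edgeR. DESeq2 called FCER1G higher (adjusted p = 0.0290), as did edgeR without a low-count filter (0.00531), and the other 14 alternatives did not, giving adjusted p between 0.0797 and 0.380. Without MRT199665 replicate 2 the FCER1G log2 fold change was 0.60 in place of 0.77.

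FCGR2A and FCGR1A encode activating receptors for the constant part of IgG. FCGR2A (CD32A) is of low affinity and carries an ITAM in its own tail, whereas FCGR1A (CD64) is of high affinity and signals through the FCER1G chain. Both have near-identical copies in the genome, so how reads were divided among them is uncertain. Over the 6 libraries FCGR1A had 1807 counts, against 177 for FCGR1B and 30 for FCGR1C, and FCGR2A had 707, against 8 for FCGR2B and 14 for FCGR2C. Among these copies, most counts were assigned to FCGR1A and FCGR2A.

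The start regions of these genes are shown because the receptors share a stretch of sequence there. RefSeq windows (GRCh38.p14) ran from 250 bases before to 50 bases after an annotated start. They were used for 8 of the 9 genes and not for LYN, 12 windows in all, those of SYK overlapping in part. They were searched on both strands for GAGGAA, a core recognised by PU.1 and contained in sites of other ETS factors, for the AP-1 motif TGANTCA, and for the MEF2 motif. GAGGAA was present in 9 of the 12 windows and in 7 of the 8 genes, against 27.9% of 35116 windows of the same length. No window of the 8 genes held TGANTCA or the MEF2 motif, which occurred in 7.71% and 2.99% of all windows. Such a match is a description of letters, and its absence concerns these windows only. The windows of TYROBP (chr19:35908246-35908545, minus strand), FCGR1A (chr1:149782444-149782743, plus strand) and FCGR2A (chr1:161505207-161505506, plus strand) read as follows, 5′ to 3′ along the gene, with GAGGAA or its reverse complement in capitals.
TYROBP: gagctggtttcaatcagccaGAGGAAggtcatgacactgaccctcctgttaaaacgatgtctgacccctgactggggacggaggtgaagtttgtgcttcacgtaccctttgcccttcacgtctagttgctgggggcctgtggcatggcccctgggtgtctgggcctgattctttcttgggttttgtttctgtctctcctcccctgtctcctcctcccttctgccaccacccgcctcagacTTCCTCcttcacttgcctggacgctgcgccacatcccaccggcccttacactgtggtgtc
FCGR1A: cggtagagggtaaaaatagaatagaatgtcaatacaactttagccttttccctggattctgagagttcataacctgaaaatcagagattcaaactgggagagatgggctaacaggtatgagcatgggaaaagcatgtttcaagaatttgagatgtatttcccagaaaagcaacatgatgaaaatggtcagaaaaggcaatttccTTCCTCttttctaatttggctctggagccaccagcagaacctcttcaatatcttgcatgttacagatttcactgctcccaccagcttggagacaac
FCGR2A: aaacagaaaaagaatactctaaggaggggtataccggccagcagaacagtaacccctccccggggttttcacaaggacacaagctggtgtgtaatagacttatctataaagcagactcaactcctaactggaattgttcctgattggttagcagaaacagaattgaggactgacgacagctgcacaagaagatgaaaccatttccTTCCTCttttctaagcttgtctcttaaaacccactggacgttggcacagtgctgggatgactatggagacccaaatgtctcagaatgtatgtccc

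Among the 8 genes whose windows were used, the longest run shared by different genes on the same strand was 20 bases, in FCGR1A and FCGR2A. The next longest of 61 pairs of windows was 11 bases. The shared run begins 52 bases before the annotated start of FCGR1A and 51 bases before that of FCGR2A, and holds GAGGAA on the reverse strand (capitals). In the whole table of 35116 windows it was present in 2, those of these receptors.
Shared run: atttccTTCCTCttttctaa

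With the run in common, the receptors had different values. FCGR2A was at 10.2, 7.21 and 7.12 CPM in vehicle replicates 1 to 3 and at 12.0, 14.7 and 13.2 CPM in MRT199665 replicates 1 to 3. The FCGR2A groups did not overlap, vehicle replicate 1 coming nearest to the treated libraries. Its ratio was 1.62 (95% interval 1.21 to 2.16), with an edgeR adjusted p of 0.131. Of 16 alternatives, edgeR without a low-count filter called FCGR2A (adjusted p = 0.0487), and the others gave adjusted p up to 0.473.

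FCGR1A was at 19.6, 33.0 and 30.1 CPM in vehicle replicates 1 to 3 and at 28.2, 23.8 and 26.8 CPM in MRT199665 replicates 1 to 3. The treated libraries all fell inside the range of the vehicle libraries, of which replicate 1 was the lowest. The FCGR1A log2 fold change was -0.07 (95% interval -0.51 to 0.38, edgeR adjusted p = 0.926), an interval that runs from 0.702 to 1.30 times the vehicle level. Its sign turned without vehicle replicate 2 (0.08). FCGR1A lies within HIST2H2BF on the opposite strand in GENCODE release 29, a gene with at most 4 counts in any library. The difference between the FCGR1A and FCGR2A responses was not tested.

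LYN and FGR are Src family kinases, which phosphorylate ITAMs and, in the case of LYN, also the inhibitory motifs of other receptors. LYN was at 87.3, 75.5 and 84.4 CPM in vehicle replicates 1 to 3 and at 114, 105 and 115 CPM in MRT199665 replicates 1 to 3. The LYN groups did not overlap, and the spread within each was small. The LYN ratio was 1.35 (95% interval 1.14 to 1.61), with an edgeR adjusted p of 0.111, and no alternative of the 16 called it (adjusted p from 0.0852 to 0.473). FGR was at 75.3, 76.4 and 82.5 CPM with vehicle and at 97.0, 75.7 and 101 CPM with MRT199665, replicates 1 to 3. MRT199665 replicate 2 fell among the vehicle libraries, and the other treated libraries lay above them. The FGR log2 fold change was 0.23 (95% interval -0.07 to 0.53, edgeR adjusted p = 0.482).

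SYK, the kinase that binds phosphorylated ITAMs, was at 96.4, 94.7 and 103 CPM with vehicle and at 95.3, 80.1 and 99.3 CPM with MRT199665, replicates 1 to 3. Its groups overlapped, and MRT199665 replicate 2 was the lowest library. The SYK log2 fold change was -0.10 (95% interval -0.36 to 0.17, edgeR adjusted p = 0.766), and it was negative in all 16 alternatives (-0.17 to -0.01). The interval for SYK excludes a rise as large as that measured for TYROBP.

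BTK, the Tec family kinase that phosphorylates phospholipase C gamma, was at 195, 315 and 253 CPM with vehicle and at 266, 179 and 256 CPM with MRT199665, replicates 1 to 3. The libraries of each group were spread over most of the range of the other. The BTK log2 fold change was -0.12 (95% interval -0.59 to 0.35, edgeR adjusted p = 0.851), and it turned positive without vehicle replicate 2 (0.06) or MRT199665 replicate 2 (0.04).

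PLCG2, the phospholipase that cleaves membrane phosphoinositide to raise calcium, was at 34.5, 27.0 and 29.1 CPM with vehicle and at 30.1, 89.1 and 29.1 CPM with MRT199665, replicates 1 to 3. A single library, MRT199665 replicate 2, was high, and the other treated libraries fell inside the vehicle range. The PLCG2 log2 fold change of 0.68 (95% interval -0.22 to 1.59, edgeR adjusted p = 0.483) therefore rested on that library and was -0.03 without it. PLCG2 was called by edgeR without a low-count filter (adjusted p = 0.00811), and by no other alternative of the 16. The SE of PLCG2 in that fit was 0.17, against 0.40 in the main fit of the same libraries. That call therefore does not reflect the spread of the PLCG2 libraries. The same library was the highest of the 6 for FCER1G and FCGR2A and the lowest for SYK and BTK.

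**Figure D2:**
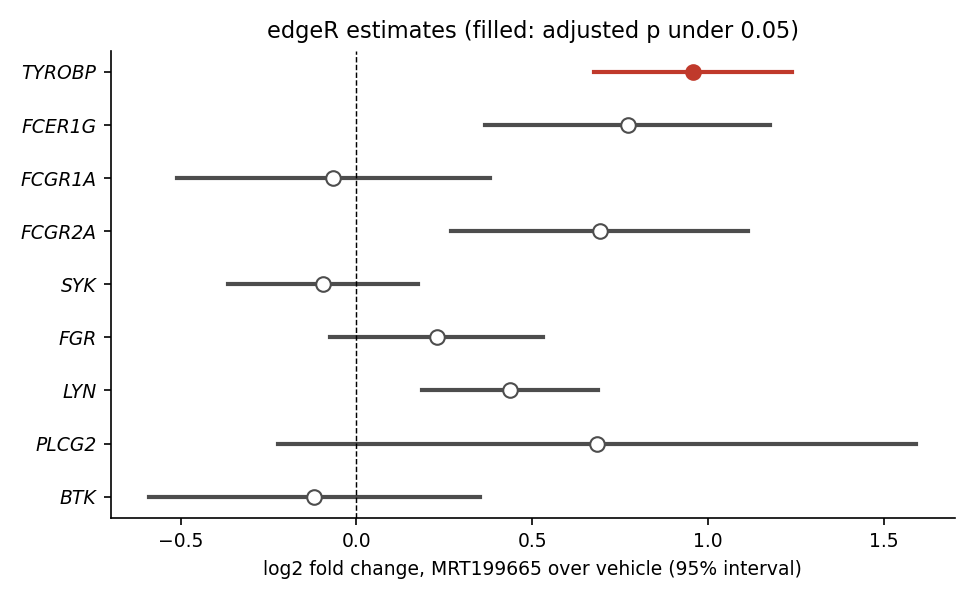
Log2 fold change of MRT199665 over vehicle (horizontal axis) for the 9 genes, with 95% intervals from edgeR that are not corrected for the number of genes. The filled point is TYROBP, called at an adjusted p of 0.00789, and the widest interval is that of PLCG2 (-0.22 to 1.59).

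**Figure D3:**
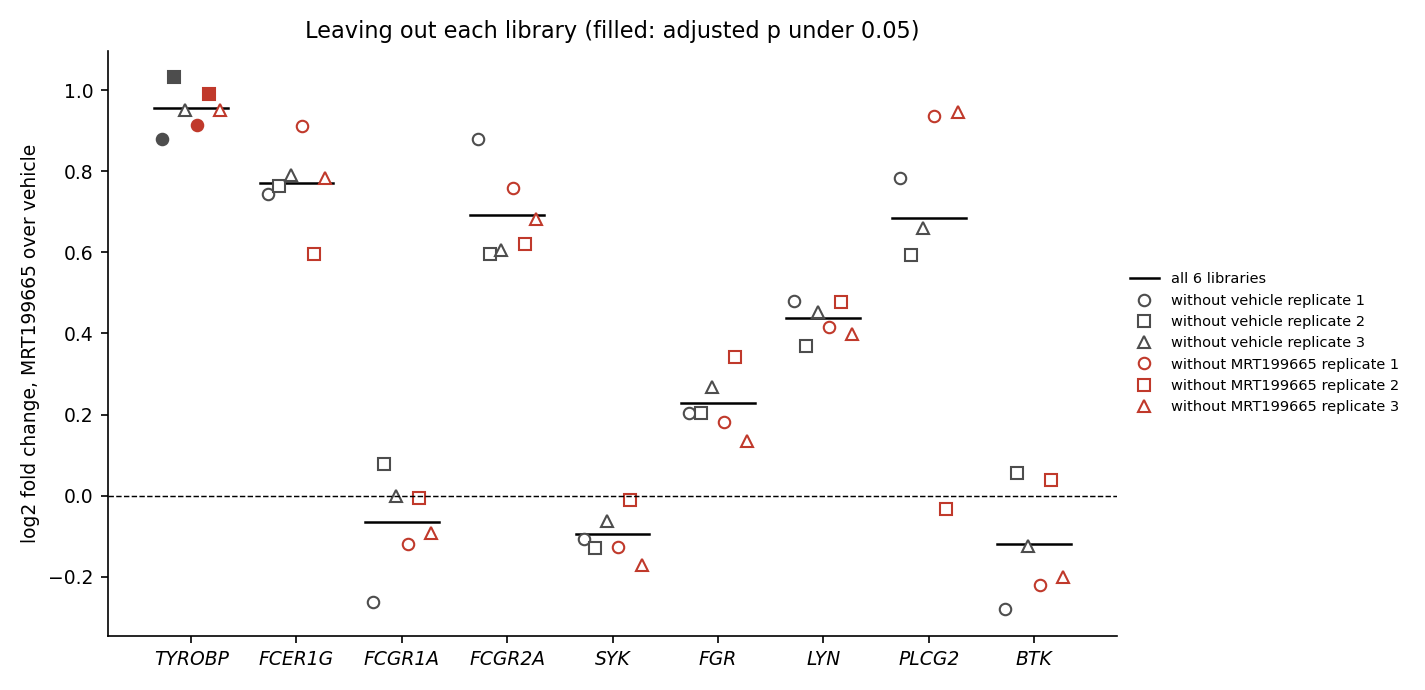
Log2 fold change of MRT199665 over vehicle (vertical axis) with each library left out in turn (symbols) and with all 6 libraries (horizontal bars). Filled symbols mark an adjusted p under 0.05, reached by TYROBP in 4 of 6 cases, and PLCG2 falls to -0.03 without MRT199665 replicate 2.

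The rest of the pathway was examined with lists of 103 other genes by role, of which 102 were in the table and 65 were tested. Of the 65, 2 rose and none fell by edgeR, against 0.850% and 0.398% of all tested genes. An unadjusted p under 0.05 was reached by 17 positive and 2 negative genes of the 65, and by 14.7% of all tested genes. The median log2 fold change of the 65 was 0.12, beside 0.01 over all tested genes, with 45 positive and 20 negative, against 6642 and 6411 of all 13053 tested genes. DESeq2 called 5 higher and none lower, and limma-voom 2 higher and none lower.

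Among 10 other Fc receptor genes, 2 were tested and FCGRT rose. FCGRT encodes the neonatal Fc receptor, a class I-like molecule that binds IgG inside endosomes and returns it to the surface, and it has no ITAM. It was at 14.0, 15.4 and 17.2 CPM with vehicle and at 31.1, 34.0 and 32.0 CPM with MRT199665, replicates 1 to 3. The treated libraries were close together and far above the vehicle libraries, at 2.08-fold (95% interval 1.69 to 2.57, edgeR adjusted p = 0.00630). The call of FCGRT ended without MRT199665 replicate 3 (adjusted p = 0.0539) and with the replicate block (0.124). FCGR2B had 8 counts over the 6 libraries, and FCGR3B had none.

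Of 20 receptors that use ITAM adaptors or carry a single such tyrosine, 11 were tested, 6 with a positive and 5 with a negative log2 fold change, and CD300LB rose. DESeq2 also called SIRPB1, another DAP12 partner (adjusted p = 0.0482, against 0.0883 by edgeR). CD300LB encodes an activating myeloid receptor that signals through DAP12. It was at 7.72, 9.35 and 7.23 CPM with vehicle and at 32.3, 23.8 and 33.7 CPM with MRT199665, replicates 1 to 3. The increase was 3.71-fold (95% interval 2.79 to 4.93, edgeR adjusted p = 0.00242), and the call of CD300LB held without each library in turn but not with the replicate block (0.0729). The median of these 11 genes was 0.08. Treated libraries lay wholly above vehicle for 4 of the 11 genes and wholly below for 3, against 11.4% and 10.8% of all tested genes. The 3 below were OSCAR, CLEC1B and CLEC5A, at log2 fold changes of -0.50, -0.27 and -0.24 (edgeR adjusted p = 0.237, 0.411 and 0.393).

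The remaining lists held no gene called by edgeR or limma-voom, while DESeq2 called HCST (adjusted p = 0.0418) and PTPN6 (0.0340). At an unadjusted p under 0.05 edgeR found 2 of 3 tested ITAM chains and adaptors, 1 of 3 Src family kinases and 1 of 1 Syk and Tec kinases. It also found 3 of 16 phospholipase, scaffold and exchange factor genes, 2 of 12 genes of the lipid kinase branch and 4 of 17 inhibitors. Among all tested genes 14.7% reached that mark. Of 3 tested ITAM chains and adaptors, all positive, HCST, described above, had the lowest p. Of 3 tested Src family kinases other than LYN and FGR, SRC had the lowest p, at 6.73 ± 1.11 CPM with vehicle and 10.3 ± 0.604 CPM with MRT199665 (SD, n = 3 per group, edgeR adjusted p = 0.149). TEC, the 1 tested gene of 5 other Syk and Tec kinases, stood at a log2 fold change of -0.54 ± 0.16 (SE), with each treated library below each vehicle library (edgeR adjusted p = 0.170).

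Among 16 tested phospholipase, scaffold and exchange factor genes, 8 were positive and 8 negative, with a median of 0.00. GRAP2, an adaptor that binds SLP-76, had the lowest p, but its vehicle libraries held 1, 6 and 1 counts and its treated libraries 23, 6 and 19, so the size of its difference is uncertain (edgeR adjusted p = 0.0895). All 12 genes of the lipid kinase, protein kinase C and CARD9 branch had positive log2 fold changes, from 0.05 to 0.76, with a median of 0.17, although none passed, and the number positive was 10 to 12 over the alternatives. PIK3AP1, which links receptors to phosphoinositide 3-kinase, was highest, at 8.78 ± 0.465 CPM with vehicle and 15.0 ± 2.99 CPM with MRT199665 (SD, n = 3 per group, edgeR adjusted p = 0.0934).

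Genes that restrain the pathway, 17 tested, had a median of 0.12, with 11 positive and 6 negative. PTPN6, which encodes the phosphatase SHP-1 that removes phosphate from ITAM signalling proteins, had the lowest p, at 46.6, 54.1 and 56.2 CPM with vehicle and 69.0, 86.4 and 76.7 CPM with MRT199665, replicates 1 to 3. The PTPN6 groups did not overlap, and the ratio of 1.48 missed the threshold (edgeR adjusted p = 0.0912).

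**Figure D4:**
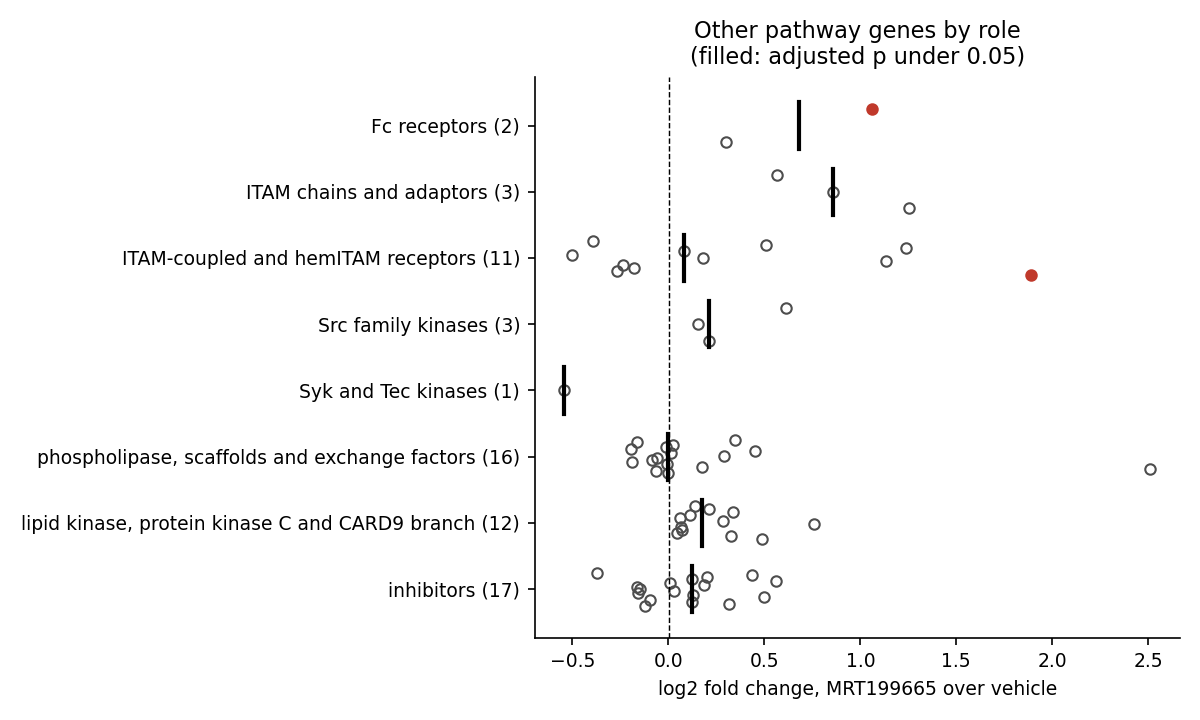
Log2 fold change of MRT199665 over vehicle (horizontal axis) for the 65 tested pathway genes, 1 point each, by role, with the number tested in parentheses. Thick bars are list medians, the dashed line is the median of all tested genes, and the filled points are FCGRT (1.06) and CD300LB (1.89).

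The genes whose values over the 6 libraries were most like those of TYROBP and FCER1G were found by the root mean square difference of log2 CPM centred per gene, among 7494 other tested genes with at least 10 CPM in the higher group. Nearest to TYROBP were FAM43A (difference 0.064), SGK223 (0.077), a pseudokinase, and TRAC (0.092), the constant part of the T cell receptor alpha chain. SGK223 was at 10.3 ± 0.255 CPM with vehicle and 20.0 ± 0.599 CPM with MRT199665 (SD, n = 3 per group). Nearest to FCER1G were SPINK2 (0.076), a protease inhibitor, RPS6KA4 (0.093), the kinase MSK2, and MPZL1 (0.095), a membrane glycoprotein that binds SHP-2. Like FCER1G, these 3 genes had their highest value in MRT199665 replicate 2, at 17.1 CPM for SPINK2, 61.0 CPM for RPS6KA4 and 17.1 CPM for MPZL1. TYROBP and FCER1G themselves differed in the treated libraries, where replicate 2 was the lowest for TYROBP and the highest for FCER1G.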

How the data were processed

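RNA of 6 OCI-AML2 libraries, 3 per group, was read from the 3′ end. The submitters' processing notes list STAR 2.4, HTSeq 0.6.1, DESeq2 and the build hg19. Annotation, strand setting and read filters are not given in the sources used here. From these tools the authors deposited whole-number counts per gene symbol, not normalized and without coordinates. Groups and replicate numbers came from the labels.

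The test was the quasi-likelihood F-test of edgeR 4.0.16 (R 4.3.3) with TMM scaling and no term but group, after filterByExpr (minimum count 10, minimum total 15). The SE was the log2 fold change divided by the square root of F, and 95% intervals used the test's degrees of freedom. Alternatives were other scalings and filters, DESeq2 1.42.0, limma-voom (limma 3.58.1), a newer quasi-dispersion, the replicate number as a block and leaving out each library. A fit without the libraries at either end of the first principal component was added after seeing the data. No library was a copy of another of its group (chi-square per degree of freedom at least 8.59), and pairs across groups were not compared.

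The 9 genes and the role lists were chosen with earlier results of these data known. Named were the 9 genes, up to 3 called genes per list (otherwise the tested gene with the lowest p), and the 3 genes nearest to TYROBP and to FCER1G. Close copies, neighbouring genes, myeloid markers, SIRPB1, OSCAR, CLEC1B, CLEC5A, FCGR3B and NKG7 were named after their values were seen. RefSeq windows (GRCh38.p14) and GENCODE release 29 served for sequences and neighbours only. The MEF2 motif was searched as its usual consensus. PECAM1 was not in the table.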

Additional observations from a re-analysis of the deposited data

How the results depend on the processing

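Of the 9 genes, TYROBP, FCER1G, FCGR2A, FGR and LYN kept a positive and SYK a negative log2 fold change in all 16 alternatives. Leaving out both ends of the first component turned BTK to 0.22, FCGR1A to 0.15 and PLCG2 to -0.11, and with single libraries left out BTK ranged from -0.28 to 0.057 (without vehicle replicate 2, and 0.038 without MRT199665 replicate 2), FCGR1A from -0.26 to 0.078 (without vehicle replicate 2) and PLCG2 from -0.032 (without MRT199665 replicate 2) to 0.95. Without a low-count filter edgeR called 373 genes higher and 271 lower over the table, 4 of the 9 genes higher and 7 pathway genes higher. That fit gave TYROBP, SYK, FGR, LYN and BTK nearly equal SEs (0.155 to 0.157), against 0.110 to 0.206 in the main fit. Its calls thus reflect little of the spread of each gene. DESeq2 called 197 higher and 150 lower, 2 of the 9 genes (TYROBP and FCER1G) and 5 pathway genes. Leaving out single libraries gave 29 to 78 higher and 20 to 55 lower genes, 0 to 1 of the 9 genes and 1 to 3 pathway genes. The smaller numbers of libraries lower the power of these fits. Apart from these construction differences the cause was not tested. The median of all tested genes moved by less than 0.1 between scalings.

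With the replicate block, 7 genes were called higher and 5 lower, 0 of the 9 genes and 0 pathway genes by edgeR. In that fit 4 of the 9 genes, and 11 positive and 2 negative pathway genes, had an unadjusted p under 0.05. The share of all tested genes at that mark in the same fit is not given here, so these counts are a description. Deviations of libraries with the same number had correlations of -0.55, -0.47 and 0.02, so the numbers were not taken to pair the libraries. No library correlated best with the library of its own number in the other group. The highest correlations were 0.53, of MRT199665 replicate 1 with vehicle replicate 2, and 0.48, of MRT199665 replicate 2 with vehicle replicate 1. The main fit used no pairing. Genes at few counts, such as GRAP2, are limited by depth.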

Other observations

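SYK, LYN, BTK and PLCG2 also act below the B cell receptor, whose chains carry ITAMs, so genes of that receptor were read beside them. The receptor chains CD79A and CD79B had means of 0.465 and 0.788 CPM with vehicle and 1.06 and 1.54 CPM with MRT199665, and neither passed (edgeR adjusted p = 0.272 and 0.438). The B cell markers MS4A1 and FCRLA had no count in any library.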
